A study of Oryza sativa with 27 samples.

Results

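The comparison set the 3 libraries of rice cells dosed with the safener metcamifen against the 3 libraries of cells dosed with the safener cyprosulfamide, all sampled 30 min after dosing. These 6 libraries were taken by their treatment and time labels from the 27 libraries of the series. The metcamifen and cyprosulfamide groups each received 5 µM of their compound in the carrier DMSO, and the carrier group received DMSO alone, so every group carried DMSO. PolyA RNA was sequenced from suspension cultures of Oryza sativa cultivar Tsukinohikari aged 5 days in every group. Further groups of the same 3 treatments, sampled at 90 and 240 min, were used to follow the loci over time, with 3 biological replicates in each of the 9 groups. A suspension culture is grown as dispersed cells in liquid, and its cells are not those of an intact shoot or root.

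Safeners are given with a herbicide to protect the crop from it. They are known for raising transcripts of the enzymes that plants use against foreign chemicals, among them glutathione transferases, cytochrome P450 enzymes, glucosyltransferases and membrane transporters. Metcamifen and cyprosulfamide share an acylated benzenesulfonamide core with an ortho-methoxybenzoyl group. They differ at the ring position opposite the sulfonyl group, where metcamifen carries a methylurea and cyprosulfamide an amide with a cyclopropyl group. They form 1 pair at a matched dose and time, and the test was adjusted over all loci of that pair.

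The count table lists 46102 loci, and 45866 of them have identifiers that begin with LOC_Os, the members examined here. Of these, 26377 passed the low-count filter and were tested, and 19489 were not tested, including those among the 4185 without a count in the 6 libraries. None of the table's identifiers was found in the gene table of the rice reference (0 of 46102 matched), so gene names, functions, cell type markers and sequences are not given, and loci are called by identifier. The number after "Os" in an identifier is its chromosome, and the digits after "g" number the loci along it.

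The 6 libraries differed in depth. Metcamifen libraries held 7278921 to 26162571 counts and cyprosulfamide libraries 23743177 to 43747251, next to 16716222 to 19455668 in the DMSO libraries of the same time. The deepest, cyprosulfamide replicate 2, stood apart on the first principal component of the 9 libraries of 30 min (35.2% of variance), at 34 where the other 8 lay between -17 and 14.6. The shallowest was metcamifen replicate 1, at 7278921 counts. Levels are given as CPM, the counts of a locus relative to the TMM-scaled total of its library, and not per transcript length, so they compare libraries and not loci.

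Metcamifen cells of 30 min had 311 loci above and 65 loci below their level in cyprosulfamide cells. These were 1.18% and 0.246% of the 26465 loci tested, at an adjusted p under 0.05 in edgeR's quasi-likelihood test with Benjamini-Hochberg adjustment. The higher loci had the larger differences, with a median of 1.33 on the log2 scale, or 2.51-fold, against a median of -0.00034 over all loci tested. Of the 311, 207 differed by at least 2-fold, 95 by at least 4-fold, 40 by at least 8-fold and 15 by at least 16-fold. The 65 lower loci had a median of -0.73, and 18 of them differed by at least 2-fold. The test that chose these loci used the same libraries, so their sizes of difference and the separation of the libraries are descriptions. The share of such separation over all tested loci is not given. All 311 higher loci had every metcamifen library above every cyprosulfamide library, and 64 of the 65 lower loci had no overlap either. The exception, LOC_Os04g54230, had 0.987, 0.153 and 0.154 CPM under metcamifen and 1.84, 2.86 and 0.899 CPM under cyprosulfamide, and was picked out after its values were seen. Its log2 difference of -2.71 (SE 0.647, edgeR adjusted p = 0.0126) lost its call under 5 of the 14 alternatives, which gave adjusted p from 0.0015 to 0.234.

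The count of higher loci moved little when single libraries were left out, from 279 to 336, though 274 to 281 of the 311 were kept. With the compared libraries only 260 were higher, 248 of them among the 311. After thinning to the smallest library 262 were higher, 245 of them among the 311. The count of lower loci did not hold in this way. It was 14 (11 of them among the 65) with the compared libraries only, 43 after thinning to the smallest library, 41 with the replicate number as a block and 114 without the low-count filter. It was 23 without cyprosulfamide replicate 2, 134 without cyprosulfamide replicate 3, and 39, 33 and 29 without metcamifen replicates 1, 2 and 3, while it was 97 without cyprosulfamide replicate 1. Without the deepest cyprosulfamide and the shallowest metcamifen library together, 268 loci were higher and 21 lower, and 254 of these higher and 16 of these lower loci were among the 311 and the 65.

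**Figure D1:**
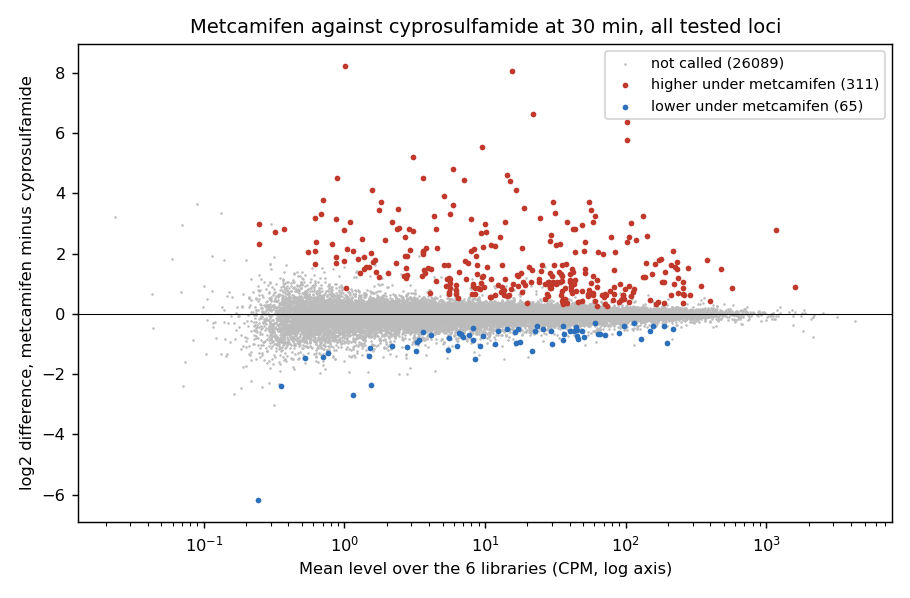
Each point is 1 of the 26465 tested loci at 30 min, with its mean level over the 6 libraries in CPM on a log axis and its log2 difference, metcamifen minus cyprosulfamide, on the vertical axis. Of the 311 loci called higher 95 lie at 2 or above, and of the 65 called lower 4 lie at -2 or below. The outermost point on each side is a locus with no count in 1 group, whose fitted value depends on the prior count.

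The locus with the smallest p among the higher ones, LOC_Os01g16146, had 95, 106 and 104 CPM under metcamifen, against 7.85, 6.96 and 8.34 CPM under cyprosulfamide. The DMSO libraries of 30 min had 8.81, 10.6 and 10.8 CPM. The metcamifen libraries stood far above all 6 others, and cyprosulfamide lay a little under DMSO. The difference between the safeners was 3.72 log2 units (SE 0.112, edgeR adjusted p = 5.98e-16), and cyprosulfamide minus DMSO was -0.39 (SE 0.12), which did not pass (edgeR adjusted p = 0.309).

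LOC_Os01g08440 had 40.0, 47.1 and 44.0 CPM under metcamifen, against 0.418, 0.548 and 0.286 CPM under cyprosulfamide and 0.256, 0.540 and 0.413 CPM in DMSO. The cyprosulfamide and DMSO libraries overlapped, and the metcamifen libraries were higher by 6.62 log2 units than those of cyprosulfamide (SE 0.279, edgeR adjusted p = 2.64e-15).

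Among the 18 lower loci that differed by at least 2-fold, LOC_Os02g32420 had the smallest p of those at 1 CPM or more, with 4.23, 4.02 and 5.05 CPM under metcamifen, against 11.7, 15.8 and 10.4 CPM under cyprosulfamide. DMSO libraries held 8.09, 8.87 and 13.8 CPM, which overlapped the cyprosulfamide libraries and lay above those of metcamifen. The difference was -1.51 log2 units (SE 0.194, edgeR adjusted p = 1.19e-05). LOC_Os02g47470, the next by p within the same limits, had 18, 21 and 20.5 CPM under metcamifen, against 34.1, 48.4 and 38.1 CPM under cyprosulfamide and 27.5, 36.5 and 38.0 CPM in DMSO. Its difference was -1.01 (SE 0.162, edgeR adjusted p = 0.000338).

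One locus in each direction had a group without counts, and both were picked out after their values were seen. LOC_Os09g31990 had 12, 59 and 41 counts under metcamifen and 0 in each cyprosulfamide and DMSO library, which puts metcamifen at least 64.4-fold higher, taking a floor of 3 counts over the cyprosulfamide group (edgeR adjusted p = 6.43e-06). LOC_Os07g37280 had 0 counts in each metcamifen library, against 11, 25 and 10 under cyprosulfamide and 21, 3 and 12 in DMSO, which puts metcamifen at least 8.89-fold lower by the same floor (edgeR adjusted p = 0.0162). Both bounds cover counting error only. The call of LOC_Os07g37280 ended without cyprosulfamide replicate 2 (edgeR adjusted p = 0.0657) and without metcamifen replicate 2 (0.16) or 3 (0.0979). It also ended without the deepest cyprosulfamide and the shallowest metcamifen library together (0.114), within a range of 0.00364 to 0.16 over 12 alternatives.

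**Figure D2:**
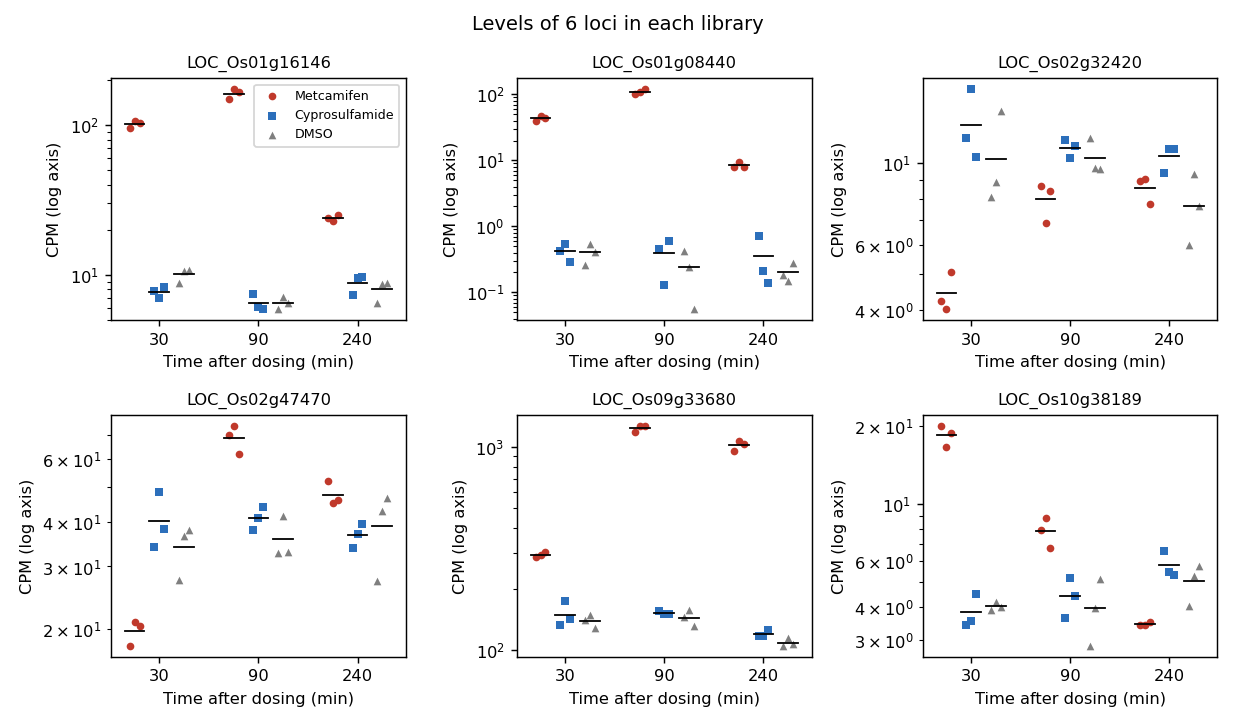
Levels of 6 loci in CPM on log axes at 30, 90 and 240 min, with 1 point per library, 3 per group, and a bar at the group mean. LOC_Os01g16146 and LOC_Os01g08440 are high under metcamifen at each time, LOC_Os02g47470 is low at 30 min and high at 90 min, and LOC_Os10g38189 is high at 30 min and low at 240 min.

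The DMSO cells of 30 min lay nearer to cyprosulfamide than to metcamifen at 309 of the 311 higher loci. Over the 311 loci the median was 1.37 log2 units for metcamifen minus DMSO and -0.03 for cyprosulfamide minus DMSO, where the medians over all loci were -0.004 and -0.017. The 10th and 90th percentiles of cyprosulfamide minus DMSO were -0.32 and 0.39. The DMSO mean fell inside the range of the 3 cyprosulfamide libraries at 189 of the 311 loci and inside the range of the metcamifen libraries at 1. The DMSO mean was below both safeners at 136 loci and between them at 175. These comparisons share libraries with the one that chose the loci, so they are descriptions. The same holds for the lower loci that follow, and the shares of such counts over all tested loci are not given.

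At the 65 lower loci the DMSO mean was nearer to cyprosulfamide than to metcamifen at 39. Their median was -0.43 for metcamifen minus DMSO and 0.29 for cyprosulfamide minus DMSO. DMSO means lay between those of the safeners at 48 of the 65 loci, above both at 13 and below both at 4. The 3 cyprosulfamide libraries gave these loci 0.269%, 0.342% and 0.273% of their counts, the highest in replicate 2, which stood apart from the other libraries of 30 min. Metcamifen libraries gave them 0.184%, 0.197% and 0.193%, and DMSO libraries 0.236%, 0.242% and 0.274%. Without that library, 23 loci were lower, 19 of them among the 65.

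Each safener was also tested against DMSO at 30 min over the whole table. Metcamifen gave 307 higher loci (1.16% of those tested) and 49 lower (0.185%). The 49 became 75 and 17 without DMSO replicates 1 and 3, and 19 without either metcamifen replicate 2 or 3. LOC_Os07g23570, named by its p in that comparison, had 240, 175 and 188 CPM under metcamifen, 2.72, 4.62 and 3.31 CPM under cyprosulfamide and 3.07, 5.22 and 4.13 CPM in DMSO. LOC_Os01g72500, a lower one, had 1.41, 1.65 and 1.18 CPM under metcamifen, 3.13, 3.17 and 2.62 CPM under cyprosulfamide and 2.92, 2.88 and 3.13 CPM in DMSO. In both, cyprosulfamide overlapped DMSO, while the lack of overlap between metcamifen and DMSO was a condition for naming them. Against DMSO, LOC_Os07g23570 differed by 5.61 log2 units (SE 0.202, edgeR adjusted p = 7.96e-15). LOC_Os01g72500 fell by 1.06 log2 units (SE 0.198, edgeR adjusted p = 0.00201), a call that ended with all libraries thinned to the smallest (0.24) and with the compared libraries alone (0.052).

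Cyprosulfamide gave 1 higher locus (0.00378%) and 0 lower (0%) against DMSO in edgeR, where 2548 loci had an unadjusted p under 0.05 and DESeq2 called 58. The count was 109 without cyprosulfamide replicate 3 and 0 without any 1 of the 5 other libraries. The locus, LOC_Os08g31510, had 4.51, 6.43 and 6.49 CPM under metcamifen, 9.23, 12.4 and 7.11 CPM under cyprosulfamide and 4.61, 4.68 and 5.08 CPM in DMSO. Its cyprosulfamide libraries lay above all 6 others, though separation from DMSO was a condition for naming it. Cyprosulfamide minus DMSO was 1.01 log2 units (SE 0.158, edgeR adjusted p = 0.041). The locus was also 1 of the 65, at -0.69 log2 units for metcamifen minus cyprosulfamide (SE 0.158, edgeR adjusted p = 0.0172). Its difference from DMSO lost its call in 8 of 14 settings, with edgeR adjusted p from 0.000435 to 0.936.

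The 26089 loci that were not called at 30 min were measured with unequal precision. The 95% interval of the safener difference lay within 2-fold in either direction at 84.4% of them. That share was 99.1% of loci with a mean of at least 100 CPM, 97.2% between 10 and 30 CPM, 74.7% between 1 and 3 CPM and 26.6% below 1 CPM. Median SE ran from 0.0875 log2 units in the first of these classes to 0.422 in the last. Calls followed the same order at its ends, with 50 of 2426 loci higher (2.06%) at 100 CPM or more and 16 of 3389 (0.472%) below 1 CPM. Below 1 CPM the interval of most uncalled loci reached 2-fold, so a difference of that size between the safeners was often not excluded.

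The higher loci were followed to the later times, in other libraries than those that chose them. At 90 min, 294 of the 311 were again higher under metcamifen than under cyprosulfamide. This was 94.5% of the 311 and 22% of the 1337 loci higher at 90 min, which were 5.05% of all tested. At 240 min 158 were higher, 50.8% of the 311 and 24.1% of the 655 loci higher at that time (2.47% of all tested). All 158 were among the 294. Over the 311 loci the median difference was 1.33 log2 units at 30 min, 1.97 at 90 min and 0.68 at 240 min. Same-numbered metcamifen libraries of different times were correlated, at 0.25 to 0.69 in their deviations from the group means, so the later libraries were not taken as independent of the first.

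The 17 higher loci without a call at 90 min had a median of 1.54 at 30 min, 0.39 at 90 min and -0.32 at 240 min. Calls of opposite sign at 30 and 240 min were found at 2 of the 311 (0.643%, where 1.47% of all tested loci were lower at 240 min), LOC_Os03g17670 and LOC_Os10g38189, and the first was picked out after its values were seen. LOC_Os03g17670 had 17.1, 15.5 and 13.4 CPM under metcamifen at 30 min, against 4.89, 5.55 and 5.27 CPM under cyprosulfamide. At 240 min it had 3.00, 2.50 and 2.06 CPM under metcamifen, against 5.50, 6.33 and 5.68 CPM under cyprosulfamide. The difference was 1.54 log2 units at 30 min (edgeR adjusted p = 4.08e-06) and -1.18 at 240 min (edgeR adjusted p = 0.00182). LOC_Os10g38189 differed by 2.27 log2 units at 30 min and -0.73 at 240 min (edgeR adjusted p = 2.02e-09 and 0.033), where it had 3.43, 3.40 and 3.50 CPM under metcamifen and 6.57, 5.48 and 5.34 CPM under cyprosulfamide.

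The lower loci were followed in the same way. At 90 min 19 of the 65 (29.2%) were called lower under metcamifen, 4.14% of the 459 loci lower at that time (1.73% of all tested), and 7 were called higher (10.8%, against 5.05% of all tested). At 240 min 5 of the 65 (7.69%) were called lower, 1.29% of the 389 loci lower then (1.47% of all tested). At that time 1 was called higher (1.54%, against 2.47% of all tested). The difference was above 0 at 16 of the 65 at 90 min and at 16 at 240 min, and below 0 at the others. Medians over the 65 were -0.73, -0.23 and -0.16 log2 units at 30, 90 and 240 min. LOC_Os02g47470 turned round: it had 69.9, 74.1 and 62.0 CPM under metcamifen at 90 min, against 38.0, 41.1 and 44.1 CPM under cyprosulfamide (log2 difference 0.74, SE 0.157, edgeR adjusted p = 0.00306). LOC_Os02g32420 did not pass at 90 min, with a log2 difference of -0.46 (95% interval -0.84 to -0.07, edgeR adjusted p = 0.181).

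**Figure D3:**
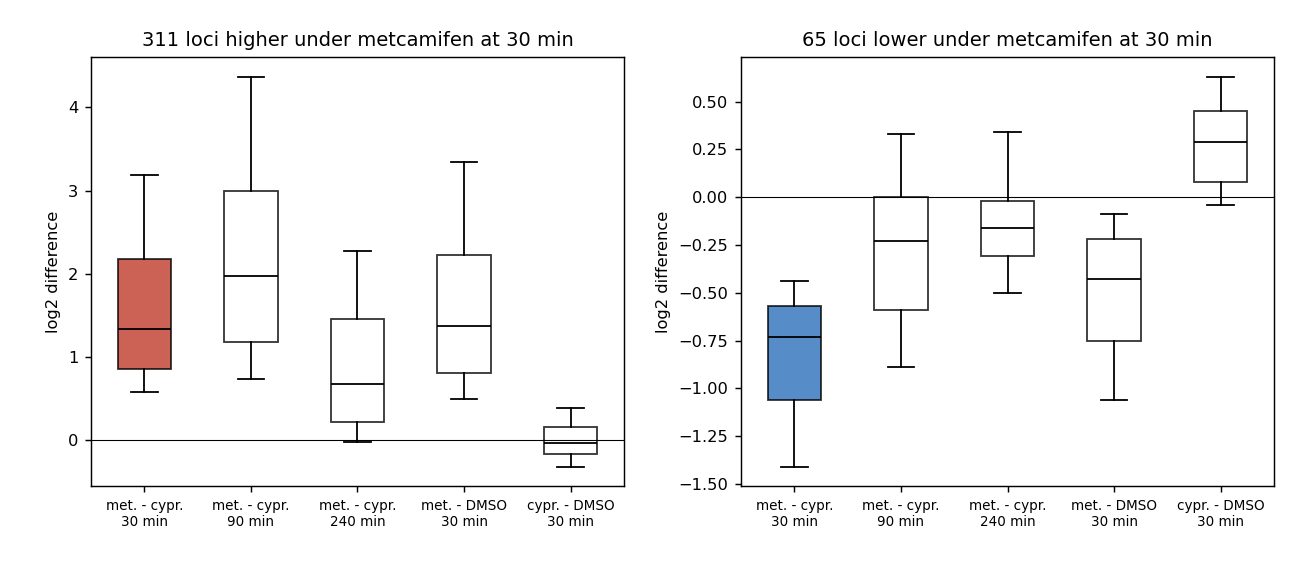
Log2 differences of the 311 loci higher (left) and the 65 loci lower (right) under metcamifen at 30 min, in 5 comparisons. Boxes span the quartiles with a line at the median, whiskers reach the 10th and 90th percentiles, and filled boxes mark the comparison that chose the loci. The higher loci have medians of 1.33, 1.97 and 0.68 at the 3 times and -0.03 for cyprosulfamide minus DMSO.

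The share of all counts taken by each set was also followed by library. The 311 loci took 2.69%, 2.55% and 2.61% of counts in the metcamifen libraries of 30 min, against 1.09%, 1.13% and 1.15% in those of cyprosulfamide and 1.06%, 1.20% and 1.21% in DMSO. At 90 min they took 4.4% ± 0.04 under metcamifen, 1.14% ± 0.0115 under cyprosulfamide and 1.14% ± 0.0529 in DMSO (SD, n = 3). At 240 min the shares were 2.15% ± 0.0586 under metcamifen, 1.14% ± 0.0153 under cyprosulfamide and 1.12% ± 0.0964 in DMSO (SD, n = 3). Cyprosulfamide and DMSO libraries overlapped at each time, and metcamifen libraries lay above both. The loci were chosen on the 30 min libraries, so the gap at that time is a description. The 65 lower loci took 0.193% ± 0.00306 of counts under metcamifen at 90 min, 0.253% ± 0.00503 under cyprosulfamide and 0.243% ± 0.0117 in DMSO (SD, n = 3). At 240 min they took 0.211% ± 0.00321 under metcamifen, 0.228% ± 0.00306 under cyprosulfamide and 0.203% ± 0.0115 in DMSO (SD, n = 3). At both times every metcamifen library lay below every cyprosulfamide library, and at 240 min the metcamifen libraries overlapped those of DMSO.

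**Figure D4:**
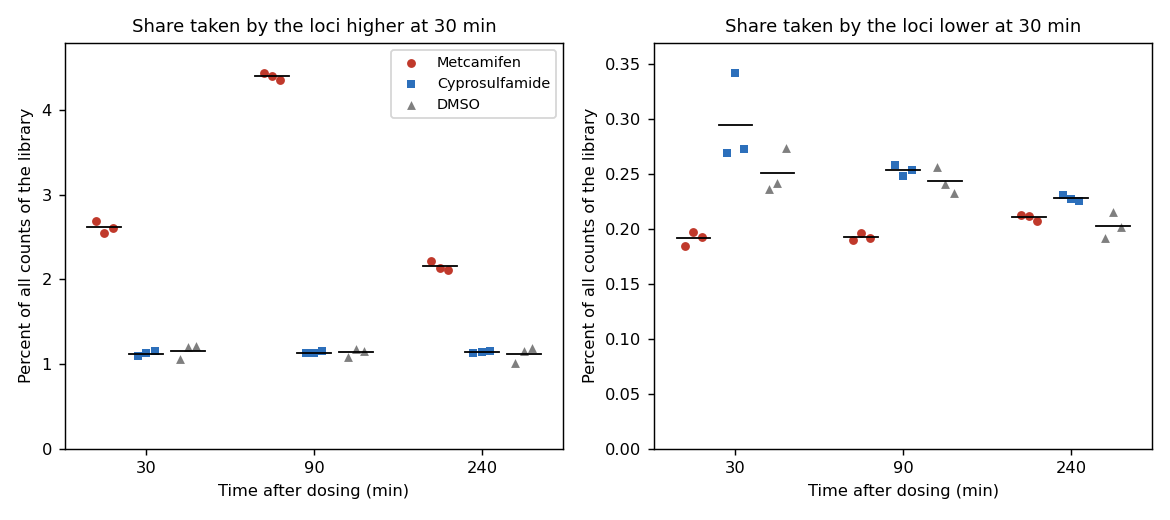
Percent of all counts of a library taken by the 311 loci higher (left) and the 65 loci lower (right) at 30 min, by time, with 1 point per library and a bar at the mean of the 3. For the higher loci the metcamifen libraries lie between 2.11 and 4.44, above all cyprosulfamide and DMSO libraries, which lie between 1.01 and 1.21.

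Whether the safener difference itself changed after 30 min was tested for every locus. From 30 to 90 min the difference became more positive at 480 loci (1.81% of those tested) and more negative at 42 (0.159%). With the replicate number as a block within treatments these were 1258 and 222, a fit that bears on this count because same-numbered metcamifen libraries of different times were correlated. Among changes of at least 2-fold toward metcamifen, LOC_Os09g33680 had the smallest p, with 286, 293 and 305 CPM under metcamifen at 30 min, against 133, 174 and 142 CPM under cyprosulfamide. At 90 min it had 1190, 1270 and 1270 CPM under metcamifen, against 156, 150 and 150 CPM under cyprosulfamide. Its metcamifen level was higher at 90 than at 30 min, while its cyprosulfamide ranges overlapped between the times, and the difference changed by 2.06 log2 units (SE 0.118, edgeR adjusted p = 2.74e-10). LOC_Os01g72570 changed by 1.41 (SE 0.1, edgeR adjusted p = 1.08e-08), from a difference of 0.75 at 30 min to 2.16 at 90 min.

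In the other direction, LOC_Os03g43510 had 24.4, 33.5 and 32.1 CPM under metcamifen at 30 min, against 32.0, 32.7 and 29.4 CPM under cyprosulfamide, and the groups overlapped. At 90 min it had 13.4, 15.3 and 17.3 CPM under metcamifen, against 41.5, 36.4 and 35.5 CPM under cyprosulfamide, a change of -1.25 (SE 0.178, edgeR adjusted p = 0.000133). LOC_Os10g38189 had 19.9, 16.5 and 18.8 CPM under metcamifen at 30 min and 7.92, 8.82 and 6.73 at 90 min. Under cyprosulfamide it had 3.43, 3.53 and 4.50 CPM at 30 min and 3.63, 5.16 and 4.43 at 90 min. Its change was -1.44 (SE 0.246, edgeR adjusted p = 0.00123), with no call after thinning of all libraries to the smallest (edgeR adjusted p = 0.07). The 42 became 23 without metcamifen replicate 2 of 30 min, 27 without replicate 3 of 30 min, and 23 and 25 without metcamifen replicates 1 and 2 of 90 min.

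From 30 to 240 min the difference became more positive at 153 loci (0.578% of those tested) and more negative at 125 (0.472%), and with the block these were 591 and 473. The 153 became 89 and 94 without metcamifen replicates 2 and 3 of 30 min, 95 without metcamifen replicate 2 of 240 min and 101 without cyprosulfamide replicate 3 of 240 min. The 125 became 72 without either of these 2 libraries of 240 min. The 278 calls became 180 without metcamifen replicate 2 of 30 min, 167 without metcamifen replicate 2 of 240 min and 173 without cyprosulfamide replicate 3 of 240 min. LOC_Os09g33680 had 960, 1070 and 1040 CPM under metcamifen at 240 min, against 118, 118 and 125 CPM under cyprosulfamide (change 2.11, SE 0.119, edgeR adjusted p = 1.82e-10). LOC_Os05g46480 did not differ by the test at 30 min, where it had 32.6, 42.6 and 39.1 CPM under metcamifen and 40.2, 41.5 and 40.8 CPM under cyprosulfamide (log2 difference -0.09, 95% interval -0.29 to 0.12). At 240 min it had 143, 149 and 155 CPM under metcamifen, against 44.4, 41.0 and 50.3 CPM under cyprosulfamide, a change of 1.80 (SE 0.141, edgeR adjusted p = 4.4e-08).

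LOC_Os01g42700 lost its difference by 240 min. It had 222, 211 and 221 CPM under metcamifen at 30 min, against 82.3, 94.3 and 86.1 CPM under cyprosulfamide. At 240 min it had 86.2, 89.3 and 89.9 CPM under metcamifen, against 87.7, 79.3 and 81.6 CPM under cyprosulfamide, and the groups overlapped. The change was -1.22 (SE 0.08, edgeR adjusted p = 2.12e-09). LOC_Os01g16146 kept 23.9, 22.7 and 25.1 CPM under metcamifen at 240 min, against 7.28, 9.59 and 9.65 CPM under cyprosulfamide, a change of -2.32 (SE 0.169, edgeR adjusted p = 1.47e-08).

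Within the 311 higher loci, the difference became more positive at 99 (31.8%, against 1.81% of all tested) and more negative at 6 (1.93%, against 0.159%) from 30 to 90 min. From 30 to 240 min it became more positive at 20 (6.43%, against 0.578%) and more negative at 74 (23.8%, against 0.472%). The 30 min libraries that chose these loci also enter the test of change, so these counts are a description.

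Higher loci were found on all 12 chromosomes, from 0.696% of the tested loci of chromosome 12 (11 of 1581) to 2.41% of those of chromosome 10 (34 of 1413). Lower loci ran from 0.0588% of tested loci on chromosome 11 to 0.396% on chromosome 7. Of the 311 higher loci, 79 (25.4%) had another higher locus as the next or previous tested identifier, where 1.18% of all tested loci were higher. Loci that were not tested can lie between such neighbours. The 79 formed 34 runs of 2 loci, 2 runs of 3 and 1 run of 5. Of the 65 lower loci, 2 (3.08%), which formed 1 pair, had a lower neighbour, where 0.246% of all tested loci were lower. The 1.18% and 0.246% count single loci, while a neighbour can lie on either side, so the matching shares are larger and not given. How reads that match several loci were counted is not given, so near-identical neighbours may share reads. Of the 42 neighbouring pairs, 1 had counts within 10% of each other in each of the 6 libraries. This limit finds only near-complete sharing, and sharing of a smaller part of the reads was not tested.

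The run of 5, picked out after its values were seen, comprised LOC_Os06g11260, LOC_Os06g11280, LOC_Os06g11290, LOC_Os06g11300 and LOC_Os06g11304 on chromosome 6. LOC_Os06g11290 had 2190, 1910 and 2070 CPM under metcamifen at 30 min, against 249, 346 and 300 CPM under cyprosulfamide and 234, 411 and 471 CPM in DMSO (log2 difference from cyprosulfamide 2.79, SE 0.269, edgeR adjusted p = 4.1e-07). LOC_Os06g11260 had 23.7, 15.2 and 17 CPM under metcamifen, against 0.209, 0.453 and 0.491 CPM under cyprosulfamide (log2 difference 5.52, SE 0.307, edgeR adjusted p = 1.13e-12). LOC_Os06g11280 differed by 2.27 log2 units (SE 0.222, edgeR adjusted p = 2.81e-07).

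LOC_Os06g11300 and LOC_Os06g11304 both differed by 1.00 log2 unit (SE 0.138 and 0.144, edgeR adjusted p = 4.05e-05 and 6.95e-05). Their counts lay within 0.719% to 6.86% of each other in all 27 libraries, so they cannot be told apart and are not separate evidence. All 5 were also higher at 90 min, with log2 differences of 6.32, 2.47, 2.95, 1.41 and 1.46 in the order of their identifiers. At 240 min LOC_Os06g11260 (2.44) and LOC_Os06g11290 (1.14) were still higher (edgeR adjusted p = 0.00033 and 0.0153), and the other 3 did not pass, at 0.62, 0.06 and 0.06.

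**Figure D5:**
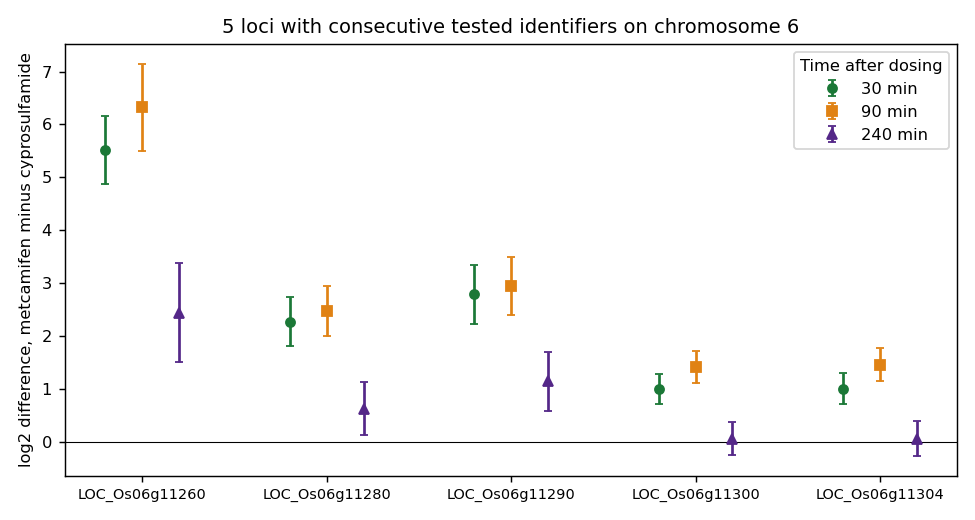
Log2 difference, metcamifen minus cyprosulfamide, of 5 loci with consecutive tested identifiers on chromosome 6 at 30, 90 and 240 min, with 95% intervals from the fitted model. All 15 differences are above 0, from 0.06 to 6.32, and those of 240 min are the smallest of each locus.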

How the data were processed

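The authors deposited 1 table of raw counts, with 1 whole number for each locus in each library and no normalization. GSNAP and edgeR are named in the submitters' processing notes, without versions. Genome build, annotation, strandedness and the rule for multiply matching reads were not given in the sources used here. Where loci overlap, lie antisense to each other or are near-identical, their counts are uncertain.

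Loci were filtered with filterByExpr (minimum count 10, minimum total 15), scaled by TMM and fitted with edgeR 4.0.16 in R 4.3.3 (glmQLFit, glmQLFTest), with 9 group means over 27 libraries and 18 residual degrees of freedom. The whole table was tested and p-values adjusted by Benjamini-Hochberg within each comparison, two-sided. Standard errors and 95% intervals came from the fitted weights and the quasi-dispersion of each locus. The code was tested on simulated data. DESeq2 1.42.0 was an alternative.

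Named loci are the 2 with the smallest p in each direction of each tested comparison, with an adjusted p under 0.05, at least 2-fold, a mean of at least 1 CPM and, between 2 groups, no overlap of libraries. Exceptions are marked. The comparison, rules and lists were chosen with earlier results of these data known. Same-numbered metcamifen and cyprosulfamide libraries of 30 min were not paired (correlations -0.26, -0.11 and 0.1 over 15516 loci).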

Additional observations from a re-analysis of the deposited data

Results flagged for a closer look

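The difference between the safeners changed with time by its own test at 522 loci from 30 to 90 min and at 278 loci from 30 to 240 min (edgeR's quasi-likelihood test, adjusted p under 0.05). With the replicate number as a block within treatments these counts were 1480 and 1064. From 30 to 90 min the changes of the named loci were 2.06 log2 units at LOC_Os09g33680, 1.41 at LOC_Os01g72570, -1.25 at LOC_Os03g43510 and -1.44 at LOC_Os10g38189. From 30 to 240 min they were 2.11 at LOC_Os09g33680, 1.80 at LOC_Os05g46480, -1.22 at LOC_Os01g42700 and -2.32 at LOC_Os01g16146. Groups of 3 libraries were too small to test for single libraries far from the others.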

How the results depend on the processing

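The 376 calls of the direct comparison at 30 min stayed within 1.5 times under all 15 alternatives (274 to 470), as did the 311 higher loci (260 to 336) and the 356 calls of metcamifen against DMSO (271 to 390, over 14). The 65 lower loci became 114 without the low-count filter, 14 with the compared libraries only, 43 after thinning to the smallest library (5516373 counts) and 41 with the replicate number as a block. They became 21 without the deepest cyprosulfamide and the shallowest metcamifen library of 30 min together, an alternative chosen after seeing the data. With single libraries left out they ranged from 23 to 134. The 49 lower loci of metcamifen against DMSO became 16 with the compared libraries only and 25 after thinning, and ranged from 17 to 75 with single libraries left out.

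The 522 changes from 30 to 90 min became 266 after thinning (253 more positive and 13 more negative) and 1480 with the replicate number as a block within treatments (1258 and 222). The more negative ones numbered 80 without the deepest cyprosulfamide and the shallowest metcamifen library of 30 min together. The 278 changes from 30 to 240 min became 1064 with that block (591 and 473) and ranged from 167 to 344 with single libraries left out. The compared libraries alone gave 96 more positive ones (153 in the full model), and DESeq2 gave 189 more negative ones (125). The single call of cyprosulfamide against DMSO became 50 without the filter, 4 with a mean of at least 1 CPM, 58 in DESeq2, and 0 with the compared libraries only, with thinning or with the replicate block, and ranged from 0 to 109 with single libraries left out. The causes were not tested. The main fit had no block, since the labels do not say that a replicate number marks a shared culture or day. Same-numbered libraries of different times correlated at 0.25 to 0.69 under metcamifen. Under cyprosulfamide they did so at -0.08 to 0.41, with replicate 3 below 0. The counts of changes over time therefore depend on whether the replicate number is taken to pair libraries.

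No named locus changed sign under any alternative run. Over 444 combinations of locus, comparison and alternative, 424 kept the call and 20 lost it. Of the losses, 8 fell on LOC_Os08g31510, 5 on LOC_Os04g54230 and 4 on LOC_Os07g37280. Alternatives that gave a locus no adjusted p were left out of the count. Most of these loci were named for a small p, which favours keeping the call. Of the lower loci, 1 in place of 5 was lower at 240 min after thinning. Of the uncalled loci below 1 CPM, 26.6% had an interval within 2-fold, the lowest share of the 6 level classes.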
